A study of Mus musculus with 5 samples.

Results

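The genes of the MHC class I presentation pathway described here were measured in CD4 SP thymocytes, the CD4+ single positive T cells of the thymus, with and without TET2 and TET3. They were chosen by name: the heavy chain genes *H2-K1*, *H2-D1* and *H2-T23*, the light chain gene *B2m*, the peptide transporter genes *Tap1* and *Tap2*, the immunoproteasome genes *Psmb8* and *Psmb9*, and the transactivator gene *Nlrc5*. These are 9 of the 55487 gene identifiers counted, and all 9 were among the 13525 genes that passed the filter on low counts, each with at least 609 reads in every library.

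As background, nearly all nucleated cells show peptides from their own proteins on class I molecules, which are read by CD8+ T cells and by receptors of NK cells. Proteasomes cut the proteins, the TAP transporter moves the peptides into the endoplasmic reticulum, and there a heavy chain folded with beta-2 microglobulin takes one up and carries it to the surface. Interferons raise the genes of the whole pathway, and NLRC5 drives many of them from a shared promoter module. TET proteins oxidise methylated cytosine, a step towards removing the methyl group from DNA.

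RNA came from 3 wild type (WT) C57BL/6J mice and from 2 mice of genotype *Tet2-/-Tet3flx/flxCD4cre* (*Tet2/3* DKO), all aged 21 to 30 days, with 1 library per mouse. In *Tet2/3* DKO mice the germline lacks *Tet2*, and *Tet3* is removed from the stage at which thymocytes first use the *Cd4* promoter, while the WT mice carry no Cre by their label. Live CD24 low, TCRb+, CD4+, CD8- cells that did not bind the CD1d tetramer were sorted, and SMART-seq libraries of 17607089 to 27267031 reads on genes were made from them. *Tet3* had 43.8, 45.6 and 52.5 CPM (counts per library scaled to a common size with TMM) in WT against 19.98 and 13.1 in *Tet2/3* DKO cells. *Tet2* had 52.4, 54.2 and 57.8 CPM in WT against 91.5 and 58.6 in *Tet2/3* DKO cells, and reads summed over the whole gene do not test whether part of it is deleted. The sex labels of 2 libraries go against their counts: WT replicate 1, labelled female, had 6821 reads on Y-linked genes and 0 on *Xist*, and *Tet2/3* DKO replicate 1, labelled male, had 7 and 744. Results for the members are therefore also given without each of these libraries.

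Several class I presentation genes were among the most abundant transcripts of CD4 SP cells. The 9 genes together took 1.96%, 1.83% and 1.87% of all reads on genes in the WT libraries, by replicate number, against 2.22% and 2.01% in the *Tet2/3* DKO libraries. *B2m*, *H2-D1* and *H2-K1* held between 86.5% and 89.3% of these reads. On a scale of CPM per kilobase of exon, the level of *B2m* was 5150.3 ± 337 (SD, n = 3) in WT against 6438 ± 629 (SD, n = 2) in *Tet2/3* DKO cells, which placed it 3rd of 13510 genes in every library. *H2-D1* followed with 2914 ± 176 and 3129 ± 235, at rank 5 or 6, and *H2-K1* with 1502 ± 68.1 and 1768 ± 265, between ranks 12 and 18. *H2-T23* lay at 275 and 257, *Psmb8* at 179 and 189, *Psmb9* at 107 and 102, *Tap1* at 86.8 and 74.9 and *Tap2* at 53.7 and 45.9 in WT and *Tet2/3* DKO cells, on the same scale. *Nlrc5* was far lower, with 4.85 ± 0.370 and 5.01 ± 1.41. The order of the 9 levels was identical in the WT and *Tet2/3* DKO means, and the libraries of neighbours in that order did not overlap within either genotype. With the length of the principal transcript in place of all exons the levels of *B2m*, *H2-D1* and *H2-K1* in WT were 5150.3, 3575 and 2725, and the order of the 9 genes was the same.

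**Figure D1:**
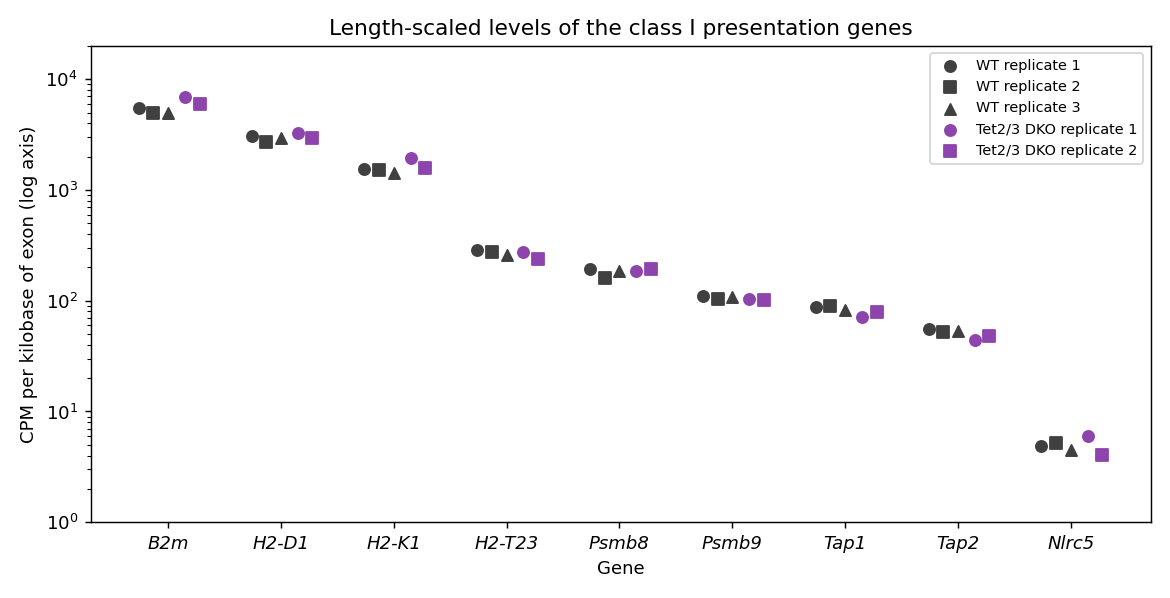
Level of each class I presentation gene in each library, in CPM per kilobase of exon on a log axis, with WT libraries in grey and *Tet2/3* DKO libraries in purple. The levels run from about 5 for *Nlrc5* to 4917 or more for *B2m*, and for each gene the 2 genotypes sit close together on this scale.

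None of the 9 genes passed the threshold of an adjusted p of 0.01 between *Tet2/3* DKO and WT cells. In the same test 530 of the 13525 genes passed, or 3.92%, with 2.42% higher and 1.5% lower in *Tet2/3* DKO cells. DESeq2 also called 0 of the 9, against 6.78% of the genes it tested. When each WT library was left out in turn, 0 of the 9 passed, where 110 to 152 of all tested genes did. Without *Tet2/3* DKO replicate 2, which leaves a single *Tet2/3* DKO library, *B2m* and *H2-K1* had log2 fold changes of 0.40 and 0.37. Without *Tet2/3* DKO replicate 1 they had 0.22 and 0.07. The log2 fold changes of the 9 ran from -0.23 (*Tap2*) to 0.32 (*B2m*) with a median of 0.05, beside a median of 0.01 over all tested genes, and 5 lay above and 4 below zero. The median size of the log2 fold change was 0.10 for the members and 0.13 over the 5324 tested genes of mean log2 CPM at least 5. At an unadjusted p under 0.05 edgeR gave 4 of the 9, *B2m* (0.0074), *Tap2* (0.026), *Tap1* (0.036) and *H2-K1* (0.047), where 23% of all genes tested did so. In 5 of the 9 the *Tet2/3* DKO libraries did not overlap the WT libraries, which was true of 39.1% of all tested genes. The 95% confidence intervals of the fold change reached no lower than 0.747 and no higher than 1.45 for any member, so a change past these bounds lies outside every interval.

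**Figure D2:**
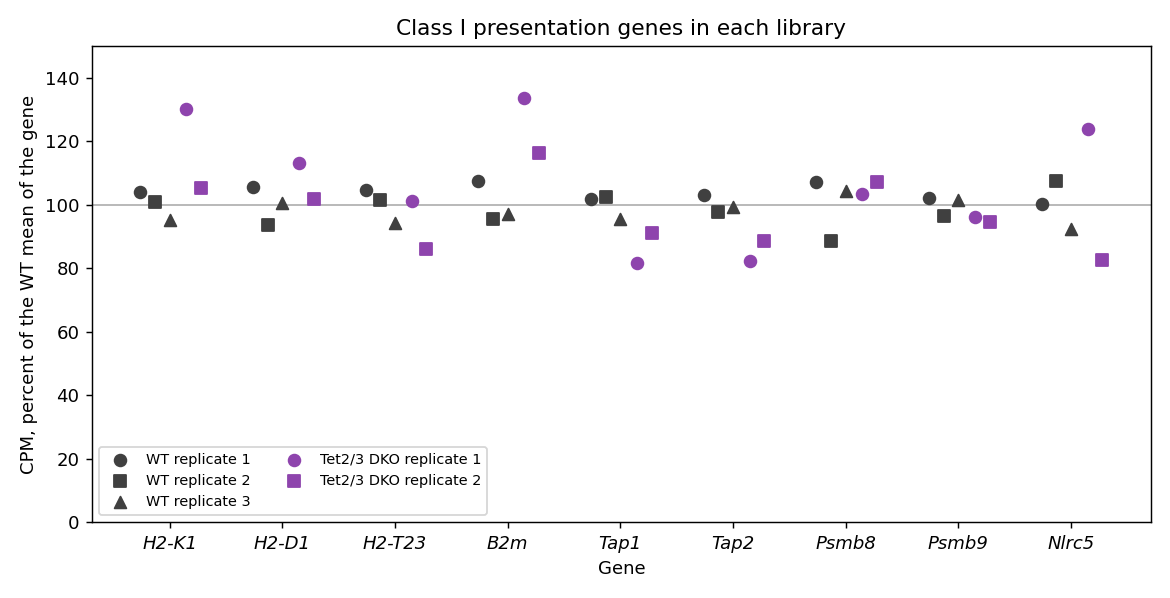
CPM of each class I presentation gene in each library, as a percentage of the gene's mean in the 3 WT libraries. Both *Tet2/3* DKO libraries lie above WT for *H2-K1* and *B2m* and below WT for *Tap1*, *Tap2* and *Psmb9*, and the 2 *Tet2/3* DKO libraries stand farthest apart from each other for *Nlrc5* and *H2-K1*.

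*B2m* (ENSMUSG00000060802, mm10 chromosome 2 from 122147686 to 122153083) encodes beta-2 microglobulin, the light chain that classical class I heavy chains need for stable display at the surface. It had 4761, 4229 and 4298 CPM in the WT libraries and 5919 and 5154 in the *Tet2/3* DKO libraries. Both *Tet2/3* DKO libraries thus lay above all WT libraries, replicate 1 the highest of all. The log2 fold change was 0.32 (SE 0.09, 95% interval 0.11 to 0.53), or 1.25-fold, with an adjusted p of 0.0699, short of the threshold. Without WT replicate 1 it was 0.38 (adjusted p = 0.129), without *Tet2/3* DKO replicate 1 it was 0.22 (adjusted p = 0.157), and without *Tet2/3* DKO replicate 2 it was 0.40 and passed (adjusted p = 0.0054), so the call rested on which *Tet2/3* DKO library was used. DESeq2 gave 0.32 with an adjusted p of 0.0206.

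*H2-K1* (ENSMUSG00000061232, chromosome 17 from 33996017 to 34000347), which encodes the classical heavy chain H-2K, had 4589.9, 4451 and 4196 CPM in WT against 5744 and 4645 in *Tet2/3* DKO cells. *Tet2/3* DKO replicate 1 stood well above the other 4 libraries, whereas replicate 2 exceeded the highest WT library only slightly. The log2 fold change was 0.24 (SE 0.10, adjusted p = 0.209). It was 0.07 (adjusted p = 0.702) without *Tet2/3* DKO replicate 1, 0.37 (adjusted p = 0.0081) without replicate 2 and 0.27 (adjusted p = 0.355) without WT replicate 1.

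*H2-D1* (ENSMUSG00000073411, chromosome 17 from 35262730 to 35267499), the gene of the other classical heavy chain of this strain, H-2D, had 7941, 7039 and 7567 CPM in WT against 8499 and 7642 in *Tet2/3* DKO cells. The genotypes overlapped, since WT replicate 1 exceeded *Tet2/3* DKO replicate 2, and the log2 fold change was 0.10 (SE 0.09, adjusted p = 0.559). It was 0.14 without WT replicate 1 and 0.02 without *Tet2/3* DKO replicate 1. The ratio of *H2-K1* to *H2-D1*, per kilobase of exon, was 0.507, 0.555 and 0.487 in WT against 0.593 and 0.533 in *Tet2/3* DKO cells, which overlap (p = 0.3, two-sided exact permutation test, whose smallest possible p here is 0.1). *H2-T23* (ENSMUSG00000067212, chromosome 17 from 36029773 to 36032855) encodes Qa-1, a non-classical heavy chain that presents leader peptides of other class I chains to NK receptors. It had 829, 804 and 746 CPM in WT against 802 and 684 in *Tet2/3* DKO cells, again overlapping, with a log2 fold change of -0.10 (SE 0.10, adjusted p = 0.619) that was -0.06 without WT replicate 1 and -0.22 (adjusted p = 0.201) without *Tet2/3* DKO replicate 1.

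Heavy chain genes resemble each other in sequence, which bears on their counts. Of the 50-base windows of the principal transcript, 8.79% in *H2-K1*, 14.3% in *H2-D1* and 28.8% in *H2-T23* also occur in a transcript of another gene, and 40.2% in *H2-Q7* and 32.0% in *H2-Q6*. Reads that fit several genes equally were not counted, so the assignment of reads to these genes is uncertain. *B2m*, *Psmb8*, *Psmb9* and *Nlrc5* shared no such window with another gene, and *Tap1* and *Tap2* shared 0.861% and 0.737%, with each other.

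The stretches before the transcription starts of *H2-K1* and *B2m*, genes whose levels did not pass the threshold, are shown with those of *H2-Q6* and *H2-Q7*, heavy chain genes that rose (described further on), so that the elements found in each can be compared. The sequences are from RefSeq on mm10, at chr17:34000354-34000467 on the minus strand for *H2-K1*, chr2:122147540-122147643 on the plus strand for *B2m*, chr17:35424668-35424804 on the plus strand for *H2-Q6* and chr17:35439013-35439148 on the plus strand for *H2-Q7*. Capitals mark the letters searched on either strand: AANNGAAA (interferon regulatory factor element), GGGATTCC (NF-kB, chosen after the data were seen, as the planned GGGANTTCC was not found in any of these windows), TGACGC or TGACGT (X2 box core) and ATTGG (Y box core).
H2-K1: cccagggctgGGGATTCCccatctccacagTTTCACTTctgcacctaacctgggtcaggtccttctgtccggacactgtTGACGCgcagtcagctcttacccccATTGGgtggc
B2m: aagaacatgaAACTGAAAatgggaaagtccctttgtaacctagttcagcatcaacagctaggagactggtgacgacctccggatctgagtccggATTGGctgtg
H2-Q6: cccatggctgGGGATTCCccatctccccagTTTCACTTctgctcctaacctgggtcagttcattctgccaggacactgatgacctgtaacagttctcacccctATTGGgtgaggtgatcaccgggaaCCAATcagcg
H2-Q7: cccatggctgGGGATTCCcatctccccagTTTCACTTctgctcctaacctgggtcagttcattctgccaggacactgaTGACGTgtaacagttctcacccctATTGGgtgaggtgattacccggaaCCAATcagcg
*H2-K1*, *H2-D1* and *H2-Q7* held all 4 kinds of letters, *H2-Q6* lacked the X2 letters, and *B2m* held the interferon and Y box letters only. The NF-kB and interferon letters began 20 bases apart in *H2-K1*, *H2-D1* and *H2-Q6* and 19 apart in *H2-Q7*. Of all 32851 promoter windows of this length, 21.3% held the interferon letters, 0.889% the GGGATTCC letters, 11.9% the X2 letters and 33.8% the Y box letters. Of the 9 members 7 had a window. *H2-T23* held 2 interferon matches and 1 Y box match. *Tap1* and *Psmb9* held the Y box letters alone, and *Psmb8* held none of these letters. The windows of the 7 held from 5 (*H2-T23*) to 14 (*H2-D1* and *Tap1*) CpG sites, the sites at which DNA is methylated, against a median of 6 over all windows. *H2-Q6* and *H2-Q7* held 8 and 7, beside 9 in *H2-K1* and 8 in *B2m*. *H2-Q2*, which also rose, held 2 and had the interferon and Y box letters only. These matches describe the reference sequence only.

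*Tap1* and *Tap2* encode the paired subunits of the transporter that brings peptides to the heavy chains. *Tap1* (ENSMUSG00000037321, chromosome 17 from 34187553 to 34197225) had 484, 487 and 455 CPM in WT against 388 and 432 in *Tet2/3* DKO cells (log2 fold change -0.21, SE 0.09, adjusted p = 0.177). *Tap2* (ENSMUSG00000024339, chromosome 17 from 34203527 to 34216321) had 209, 198 and 202 CPM in WT against 167 and 180.04 in *Tet2/3* DKO cells (log2 fold change -0.23, SE 0.09, adjusted p = 0.147). For both genes the *Tet2/3* DKO libraries lay below all WT libraries, but neither gene passed the threshold. Without *Tet2/3* DKO replicate 1 the log2 fold changes were -0.14 and -0.18, and without WT replicate 1 they were -0.20 and -0.20, none of them past the threshold. The ratio of *Tap1* to *Tap2*, per kilobase of exon, was 1.62 ± 0.0725 (SD, n = 3) in WT against 1.63 ± 0.0361 (SD, n = 2) in *Tet2/3* DKO cells. Of the exon bases of *Tap2*, 18.5% are shared with genes of the opposite strand, so that reads there were left out, and counts from each strand alone gave log2 fold changes of -0.21 and -0.21. The transporter and light chain genes thus lay on opposite sides of WT: the ratio of *Tap1* to *B2m*, per kilobase of exon, was 0.0160, 0.0181 and 0.0166 in WT against 0.0103 and 0.0132 in *Tet2/3* DKO cells. This ratio was chosen after the values were seen. Its two-sided exact permutation test (p = 0.1, the smallest possible here) therefore cannot count as a test.

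Of the 14 genes for peptide transport, trimming and loading, *B2m*, *Tap1* and *Tap2* included, none passed the threshold in edgeR's test, and their median log2 fold change was 0.07. *Tapbp*, which encodes tapasin, the chaperone that bridges TAP and the heavy chain, had 1073, 1040.5 and 986 CPM in WT against 943 and 831 in *Tet2/3* DKO cells. Its log2 fold change was -0.22 (adjusted p = 0.172), close in size to those of *Tap1* and *Tap2*. *Tapbp* was named after its values were seen. The most abundant genes of this list beside *B2m*, by their mean over all 5 libraries, were *Hspa5*, which encodes the chaperone BiP, with a log2 fold change of 0.30 (adjusted p = 0.0396, and 0.00221 with DESeq2, which called it alone of the 14), and *Pdia3*, which encodes the thiol oxidoreductase ERp57 of the loading complex, with 0.06 (adjusted p = 0.76).

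*Psmb8* and *Psmb9* encode catalytic subunits that replace those of the standard proteasome and shift cutting towards peptides that bind class I. *Psmb8* (ENSMUSG00000024338, chromosome 17 from 34197721 to 34201454) had 649.9, 538 and 632 CPM in WT against 628 and 650.3 in *Tet2/3* DKO cells. WT replicate 2 was the lowest of the 5 and the others overlapped, with a log2 fold change of 0.08 (SE 0.10, adjusted p = 0.719) that was 0.10 without *Tet2/3* DKO replicate 1, 0.13 without WT replicate 1 and -0.01 without WT replicate 2. *Psmb9* (ENSMUSG00000096727, chromosome 17 from 34181987 to 34187764) had 402, 379 and 398 CPM in WT against 378 and 372 in *Tet2/3* DKO cells. The *Tet2/3* DKO libraries lay below the WT libraries by a narrow gap, and its log2 fold change of -0.07 (SE 0.08, adjusted p = 0.667) was -0.08 and -0.05 without *Tet2/3* DKO replicate 1 and WT replicate 1.

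*Psmb9* and *Tap1* run in opposite directions and share 212 exon bases at their starts, 5.79% of *Psmb9*, where reads were left out as ambiguous. In *Psmb8* 14.7% of the exon bases are shared with a gene of the opposite strand, and the counts of each strand gave log2 fold changes of 0.12 and 0.06. None of the 5 immunoproteasome genes passed the threshold, with log2 fold changes from -0.07 to 0.08. They included *Psmb10*, the third inducible catalytic subunit, at -0.01, and *Psme1* and *Psme2*, which encode the interferon-inducible proteasome activator, at 0.02 and -0.02. Nor did any of the 17 genes of the standard proteasome and its assembly pass, all 17 with log2 fold changes above zero, from 0.01 to 0.23 and with a median of 0.08. The most abundant of these, the core subunit genes *Psma2*, *Psma1* and *Psma7*, had 0.01, 0.08 and 0.12.

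The balance of inducible to standard subunits was compared within each library, per kilobase of exon. The ratio of *Psmb8* to *Psmb5*, the subunit it replaces, was 1.36 ± 0.0732 (SD, n = 3) in WT against 1.23 ± 0.0365 (SD, n = 2) in *Tet2/3* DKO cells (p = 0.2, two-sided exact permutation test), with both *Tet2/3* DKO libraries (1.20 and 1.25) below the 3 WT libraries (1.28 to 1.41). The ratio of *Psmb9* to *Psmb6* was 0.439 ± 0.0441 and 0.408 ± 0.0148 (p = 0.5, exact permutation test), and that of *Psmb10* to *Psmb7* was 8.75 ± 0.609 and 8.55 ± 0.656 (p = 0.7, exact permutation test). These are 3 comparisons in which no p below 0.1 is possible, and none reached 0.1. Exon lengths that include rarely used exons set the size of each ratio, so the ratios compare libraries and not subunits. *Psmb11*, the subunit of cortical thymic epithelium and not of T cells, had 39, 22 and 18 reads in WT against 1 and 0 in *Tet2/3* DKO cells.

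*Nlrc5* (ENSMUSG00000074151, chromosome 8 from 94434356 to 94527272) encodes the transactivator of class I promoters. It had 41.3, 44.3 and 38.04 CPM in WT against 51.1 and 34.1 in *Tet2/3* DKO cells. The *Tet2/3* DKO libraries were the highest and the lowest of the 5, and *Nlrc5* had the widest interval of the members, with a log2 fold change of 0.05 (SE 0.17, 95% interval -0.32 to 0.43, adjusted p = 0.897). Without *Tet2/3* DKO replicate 1 it was -0.28 (adjusted p = 0.272), without replicate 2 it was 0.30 (adjusted p = 0.159), and without WT replicate 1 it was 0.05.

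Among 28 genes known to act upstream of class I transcription, *Nlrc5* included, *Ifngr1*, which encodes the ligand-binding chain of the interferon gamma receptor, was the only gene past the threshold in edgeR's test, whereas DESeq2 called 4. It had 292, 255 and 271 CPM in WT against 510.2 and 510.0 in *Tet2/3* DKO cells (log2 fold change 0.90, SE 0.09, adjusted p = 0.000363), and its adjusted p was at most 0.0071 over the alternatives. The other 27 had a median log2 fold change of 0.00107. Of the other most abundant, *Jak1*, a kinase of interferon receptors, had -0.18 (adjusted p = 0.294) and *Irf9*, a subunit of the factor that type I interferon activates, had -0.14 (adjusted p = 0.425). Of genes named after their values were seen, *Irf1*, which encodes a factor that binds the class I interferon element, had 372, 358 and 355 CPM in WT against 244 and 323 in *Tet2/3* DKO cells (log2 fold change -0.35, adjusted p = 0.108). It was -0.16 without *Tet2/3* DKO replicate 1 and -0.58, past the threshold (adjusted p = 0.0011), without replicate 2. *Nfkb1*, *Jak2* and the type I interferon receptor gene *Ifnar1* had 0.52, 0.55 and -0.45, with adjusted p of 0.0154, 0.0256 and 0.0168, which lie under 0.05 but not under the threshold, and with DESeq2 they passed (adjusted p = 0.000588, 0.00326 and 0.000196).

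The wider class I family contained genes that did rise. Of 26 heavy chain and class I-like genes 19 were tested, of which 4 rose and 0 fell, and DESeq2 called 5. The median log2 fold change over the 19 was 0.10. The list does not hold *H2-Q3*, *H2-Q5* and *H2-T-ps*, which were also tested. Of these *H2-Q5*, annotated as a polymorphic pseudogene, had 3.02, 2.49 and 2.88 CPM in WT against 6.48 and 12.98 in *Tet2/3* DKO cells (log2 fold change 1.77, adjusted p = 0.00974), and the other 2 did not pass. *H2-Q7*, which encodes the GPI-anchored molecule Qa-2, had 181, 195 and 174 CPM in WT against 505 and 407 in *Tet2/3* DKO cells (log2 fold change 1.32, SE 0.11, adjusted p = 0.000142). *H2-Q6*, a neighbouring gene of the Qa-2 group, had 25.8, 27.3 and 28.7 CPM against 76.6 and 108 (1.75, adjusted p = 0.000166). *H2-Q2* had 8.63, 9.27 and 9.29 CPM against 23.2 and 26.1 (1.44, adjusted p = 0.0005). For each of these even the lower *Tet2/3* DKO value exceeded all WT values, and each passed the threshold under every alternative tried. *Cd1d2*, a copy of the lipid-presenting gene *Cd1d1*, had 3.98, 3.24 and 4.74 CPM against 12.9 and 11.7 (1.62, adjusted p = 0.00189), and passed in no fit that left out a WT library.

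The intervals of the Qa-2 genes did not overlap those of *H2-K1* and *H2-D1*. The 95% interval of the fold change was 2.11 to 2.94 for *H2-Q7* and 2.67 to 4.24 for *H2-Q6*, and 1.003 to 1.38 for *H2-K1* and 0.933 to 1.24 for *H2-D1*. Per kilobase of exon, *H2-Q7* stood at 0.0272, 0.0302 and 0.0285 of the level of *H2-K1* in WT and at 0.0606 and 0.0603 in *Tet2/3* DKO cells. As *H2-Q7* was known to rise, the two-sided exact permutation test of this ratio (p = 0.1, the smallest possible here) cannot count as a test. The level of *H2-Q7* remained far under that of the classical genes in both genotypes, at 43.0 and 107 CPM per kilobase of exon. Of genes named after their values were seen, *H2-Q10* had a log2 fold change of 2.60 from at most 2.07 CPM in any library (adjusted p = 0.0127, and 0.00773 with DESeq2), *H2-K2* had -0.51 (adjusted p = 0.0636) and *Cd1d1* had -0.29 (adjusted p = 0.273). Without *Tet2/3* DKO replicate 1 the log2 fold changes of *H2-Q10*, *H2-K2* and *Cd1d1* were 2.97, -0.32 and -0.56. Without *Tet2/3* DKO replicate 2 they were 2.16, -0.75 and -0.08.

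Except for *B2m* and *Nlrc5*, the members lie in the H2 region of chromosome 17, which also holds genes that rose. *Psmb9*, *Tap1*, *Psmb8* and *Tap2* occupy 34.3 kb from 34181987 to 34216321, in which these 4 were the only genes tested and 0 passed. On their proximal side lie *H2-DMb1*, *H2-DMb2* and *H2-DMa*, which encode chains of the class II peptide exchange factor. *H2-DMa* had 109, 98.2 and 113 CPM in WT against 423 and 392 in *Tet2/3* DKO cells (log2 fold change 1.94, adjusted p = 5.5e-06), and *H2-DMb2* had 5.49, 5.06 and 4.88 against 16.2 and 18.0 (1.73, adjusted p = 0.000444). *H2-DMb1*, the nearest to *Psmb9*, had 1.47 (adjusted p = 0.03). On the distal side, 22.6 kb from *Tap2*, lies *H2-Ob*, a chain of the factor that restrains this exchange, with 0.33 (adjusted p = 0.108). *H2-D1* lies 74.7 kb from *H2-Q2*, and of the 9 tested genes from *H2-D1* to *H2-Q7* 4 rose, *H2-Q2*, *H2-Q5*, *H2-Q6* and *H2-Q7*, and 0 fell. From *H2-K1* to *H2-M3*, 107 genes were tested, of which 9 rose and 1 fell.

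**Figure D3:**
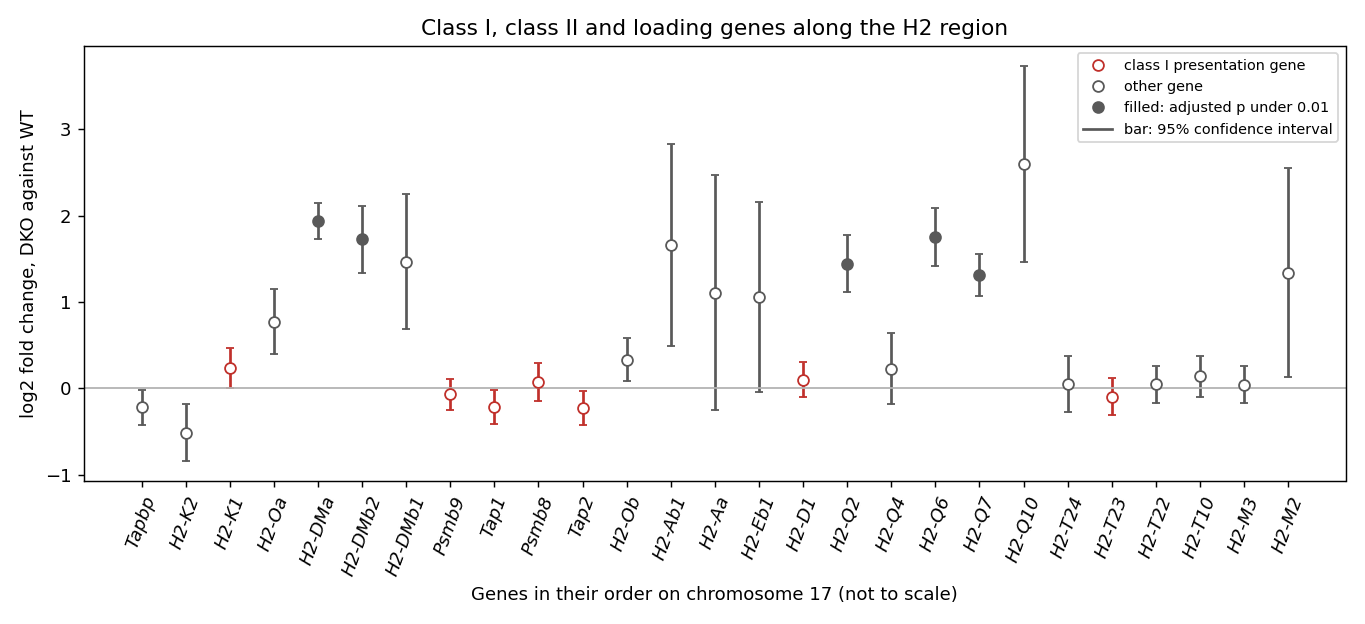
Log2 fold change of the tested genes of the class I, class II and peptide loading lists that lie in the H2 region, in their order on chromosome 17, with 95% confidence intervals as bars, members in red and filled points for an adjusted p under 0.01. *H2-Eb2*, at 6.05 with 1 read in all WT libraries together, is left out for scale, and *H2-Q5* is in no list. The members lie near zero between -0.23 and 0.24, whereas *H2-DMa*, *H2-DMb2*, *H2-Q2*, *H2-Q6* and *H2-Q7* lie between 1.32 and 1.94.

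Class I presentation genes are targets of interferons, and other interferon-induced genes were set beside them. Of 26 such genes 25 were tested: 2 rose, *Mx1* (1.51, adjusted p = 0.00448) and *Oas1a* (1.14, adjusted p = 0.00776), and 0 fell. DESeq2 called 8 of the 25, all higher in *Tet2/3* DKO cells, among them *Irf7*, which encodes an interferon-induced transcription factor and was named after its values were seen (0.64, adjusted p = 0.000556, against 0.65 and 0.0232 with edgeR). The median log2 fold change of the 25 was 0.45, and 24 lay above zero, beside a median of 0.05 for the members. The call of *Mx1* was lost without WT replicate 2 or 3 (adjusted p = 0.0435 and 0.0334), and that of *Oas1a* without any 1 of the WT libraries (adjusted p from 0.0291 to 0.0512) and with robust moderation (0.0263). With the replicate number as a block their adjusted p was 0.0151 and 0.0142. The most abundant, *Ifi27l2a*, *Ifi47* and *Igtp*, had 0.44, 0.37 and 0.25, with adjusted p of 0.0456, 0.093 and 0.139. When *Tet2/3* DKO replicate 1 was left out, their values became 0.22, 0.16 and 0.18, and that of *Irf7* became 0.38. The summed level of the 26 genes was 8066, 6922 and 6837 CPM in WT against 11142 and 8702 in *Tet2/3* DKO cells. *Ifng* itself had at most 3.08 CPM and *Ifnb1* 0 reads in every library.

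**Figure D4:**
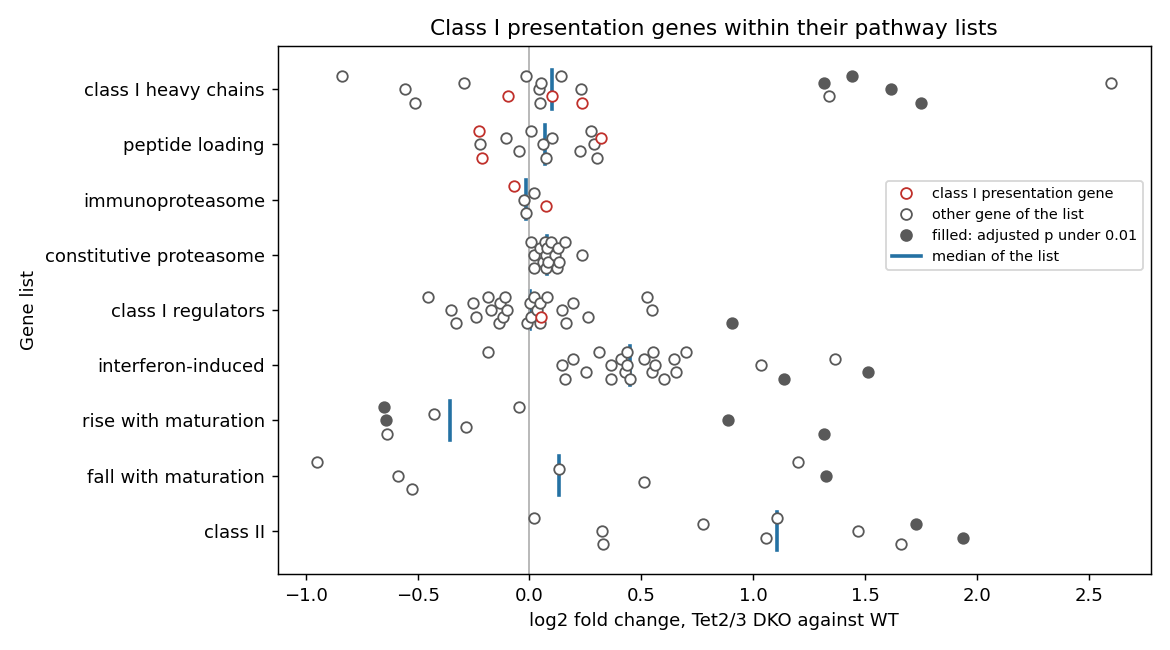
Log2 fold change of each tested gene of the pathway lists (1 point a gene, members in red, filled where the adjusted p is under 0.01) with the median of each list as a blue line. *H2-Eb2* is left out for scale. The peptide loading, immunoproteasome and constitutive proteasome lists lie within 0.33 of zero, the interferon-induced genes lie around a median of 0.45, and the filled points among heavy chains are genes other than the members.

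Class I levels rise as single positive thymocytes mature, so genes of maturation were measured in the same libraries. Of 8 genes that rise with maturation, 2 were higher, *H2-Q7* and *Ms4a4b* (0.89, adjusted p = 0.00152), and 2 were lower, the egress receptor gene *S1pr1* (-0.64, adjusted p = 0.00394) and the chemokine receptor gene *Ccr7* (-0.65, adjusted p = 0.00153). *Cd52*, also among the most abundant, had -0.43 (adjusted p = 0.0313), and 6 of the 8 genes lay below zero. DESeq2 called 7 of the 8, adding *Cd52* (adjusted p = 0.00135) and, named after their values were seen, *Klf2* (-0.64, adjusted p = 2.95e-05) and *Il7r* (-0.29, adjusted p = 0.00773), all 3 lower in *Tet2/3* DKO cells. Of 9 genes that fall with maturation 7 were tested, and the chemokine receptor gene *Ccr4* was higher (1.33, adjusted p = 0.00345). *Itm2a*, *Cd69* and *Nr4a1* had 0.13, 1.20 and -0.59, with adjusted p of 0.694, 0.0131 and 0.0524. Without *Tet2/3* DKO replicate 1 they had 0.0057, 0.57 and -0.90, and without replicate 2 they had 0.23, 1.62 and -0.35. *Cd69* passed in both of these fits (adjusted p = 0.00058 and 5.28e-09), and *Nr4a1* passed without replicate 1 (adjusted p = 9.08e-05) and with DESeq2 (0.00471). *Ms4a4b*, *S1pr1*, *Ccr7* and *Ccr4* each lost their call in 1 or more fits without a WT library, with adjusted p up to 0.0336.

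Other cells of the thymus also express class I genes, and some of their markers differed between the genotypes. The summed level of 10 markers of dendritic and myeloid cells was 113 to 127 CPM in WT against 155 and 229.9 in *Tet2/3* DKO, and that of 3 NK or innate-like markers was 2.19 to 3.64 and 20.3 and 34.2. Most of the myeloid sum was *Cst3*, with 97.7 to 117 CPM in WT against 128 and 173. Of 7 myeloid markers tested 6 lay above WT in both *Tet2/3* DKO libraries, with a median log2 fold change over the 7 of 1.47. The other, *Flt3*, lay below WT (-1.64, adjusted p = 0.126), and 39.1% of all tested genes did not overlap between the genotypes. Named after its values were seen, the lysozyme gene *Lyz2* had 10.8, 10.4 and 5.83 CPM against 18.6 and 42.5 (adjusted p = 0.0142). Some markers of these lists, *Itgax*, *Ms4a1* and *Pax5*, had at most 0.448 CPM in any library, while others, such as *Lyz2*, had more. *Foxn1*, of thymic epithelium, had at most 0.126 CPM. Of the markers tested, 0 of 7 for myeloid cells and 1 of 3 for B cells (*Blk*, with at most 0.337 CPM in WT against 5.53 and 16.5) passed the threshold. The log2 fold changes of the 3 B cell markers lay above zero in 2 and below zero in 1. For NK or innate-like cells 3 of 3 (*Ncr1*, *Klrb1c* and *Zbtb16*, higher) passed. Over the alternatives the adjusted p reached 0.0234 for *Blk*, 0.0153 for *Ncr1* and 0.0497 for *Klrb1c*, whose calls were thus lost in some, and 0.0035 for *Zbtb16*. The 2 CD8 T cell markers summed to between 68.8 and 77.1 CPM in WT against 34.3 and 35.8 in *Tet2/3* DKO. Most of this was *Cd8b1*, which was lower, while *Cd8a* had 2.71, 2.91 and 5.39 CPM in WT against 5.77 and 8.67 (log2 fold change 0.94, adjusted p = 0.128). The 6 markers of thymic epithelium had 10.6 to 13.4 CPM in WT and 10.7 and 34.1 in *Tet2/3* DKO, with 0 past the threshold. Most of this sum was *Epcam*, with 33.8 CPM in *Tet2/3* DKO replicate 2, whereas the other 2 tested, *Krt8* and *Psmb11*, had log2 fold changes of -2.52 and -5.05 (adjusted p = 0.0642 and 0.0189). The 3 erythroid markers had at most 0.253 CPM in any library. Of 11 class II genes 3 rose, *H2-DMa*, *H2-DMb2* and *H2-Eb2*, and 0 fell. DESeq2 called 4, adding *H2-Oa* (0.76, adjusted p = 0.00167). Named after their values were seen, *H2-Ab1*, *H2-Aa* and *H2-Eb1* had 26.5, 13.1 and 8.67 CPM in *Tet2/3* DKO replicate 2. They had 5.72, 2.48 and 2.38 CPM in replicate 1, and at most 5.98, 5.18 and 2.99 in WT. The call of *H2-Eb2* was lost without any 1 of the WT libraries (adjusted p from 0.0207 to 0.0255). *Cd74*, the invariant chain gene and the most abundant of them after *H2-DMa*, had 63.6, 56.7 and 87.5 CPM in WT against 74.0 and 100.1 in *Tet2/3* DKO cells (log2 fold change 0.33, adjusted p = 0.357). The summed levels of the myeloid and NK markers were higher in *Tet2/3* DKO replicate 2 than in replicate 1, whereas *B2m* and *H2-K1* were higher in replicate 1, and the part of such cells in the class I levels was not tested. The 8 markers of CD4 SP thymocytes summed to 6651 to 6962 CPM in WT against 6439 and 5907 in *Tet2/3* DKO cells, with 4 lower, *Cd4* (-0.67), *Cd5* (-1.28), *Zbtb7b* (-1.17) and *Lef1* (-0.60), and 0 higher past the threshold. Of these *Cd5* passed under every alternative, whereas the adjusted p reached 0.0419 for *Cd4*, 0.0198 for *Zbtb7b* and 0.0404 for *Lef1*. In bulk RNA, fewer cells of a type and less RNA per cell cannot be told apart.

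Many genes of like abundance had profiles as close to the members' median as the members themselves. The genes nearest to that median profile over the 5 libraries, among the 5314 other genes of mean log2 CPM at least 5, were *Scaf11*, *Cnbp*, *Crlf3*, *Spout1* and *Mettl23*, at distances of 0.032 to 0.040 (log2 CPM centred on the WT mean). The members lay at 0.13 (*Psmb9*) to 0.48 (*B2m*), and 76.8% of the other genes lay no farther than *B2m*.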

How the data were processed

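For each of the 5 libraries the authors trimmed reads with fastp 0.21.0, aligned them with STAR 2.7.5a to mm10 and deposited the raw count of reads on each gene, neither normalised nor pooled. Multimapping reads and reads over several genes are not in these counts. The column without regard to strand was used. The deposited T cell receptor tables were not used here.

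Of 55487 gene identifiers, 55141 took a symbol from GENCODE M21, and the other 346 carry no name. The counts were tested with edgeR 4.0.16 in R 4.3.3 (quasi-likelihood F test, newer dispersion moderation, TMM scaling, filterByExpr by genotype, Benjamini-Hochberg adjustment over all tested genes, threshold 0.01). A standard error is the size of the log2 fold change over the square root of F. DESeq2 1.42.0, other scalings, filters, moderations, strand columns, thresholds, a replicate block and each library left out were the alternatives. The code was checked on simulated counts.

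The members and the pathway lists were chosen with earlier results of these data known. All members are given, and of each pathway list the genes past the threshold with the 3 most abundant. Marker lists are given by counts, summed levels and the genes past the threshold. The genes most like the members are the 5 of mean log2 CPM (prior count 2) at least 5 with the smallest Euclidean distance to the members' median profile. Promoter windows are from RefSeq on GRCm38 (mm10), of which the 250 bases before the start were searched. Ratios were compared with two-sided exact permutation tests in Python 3.11.15 with scipy 1.17.1. The summed level of the B cell marker list is not reported here.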

Additional observations from a re-analysis of the deposited data

How the results depend on the processing

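The count of class I presentation genes past the threshold stayed at 0 with DESeq2, other scalings, no filter, and legacy or robust moderation. This count was 0 with either strand column, the replicate block, each WT library left out, and a threshold of 0.05 in the main fit. It ran from 0 to 2 over the fits without 1 library, with *B2m* and *H2-K1* passing only without *Tet2/3* DKO replicate 2. The count over all genes, 530, was 1025 with DESeq2, 1173 at a threshold of 0.05, 358 with the replicate block, and 110 to 1311 over the fits without 1 library. Of 126 values of the members under alternatives, 120 kept direction and side of the threshold, 2 newly passed and 4 changed sign. *B2m* was under 0.05 in some alternatives. Its adjusted p was 0.0206 with DESeq2, 0.0298 without TMM, 0.0273 without the filter and 0.0442 with the replicate block. Without 1 library the log2 fold change ran from 0.072 to 0.37 for *H2-K1*, 0.22 to 0.40 for *B2m*, -0.0063 to 0.13 for *Psmb8* and -0.28 to 0.30 for *Nlrc5*, which was -0.029 with the replicate block. In the same fits it ran from -0.058 to 0.16 for *Pdia3*, -0.11 to 0.043 for *Psme2*, -0.091 to 0.11 for *Psme1*, -0.041 to 0.052 for *Psma2* and -0.13 to 0.077 for *Psmb10*. Signs also changed in *Psme1* (-0.0011) and *Psma2* (-0.012) without the filter, in *Psme2* (0.0044) and *Psma2* (-0.013) with the second strand column, and in *Psmb10* (0.0040) with the replicate block. The causes of these shifts were not tested. Of 559 values of the other 40 named genes, 25 lost and 22 gained a call.

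Fits that leave out a *Tet2/3* DKO library keep a single one, which is assumed to vary as the WT libraries do. Deviations of same-numbered libraries correlated at 0.0151 and 0.0045. With 2 *Tet2/3* DKO libraries, whose deviations mirror each other, this check is weak and cannot exclude that the numbers pair the mice. The replicate block changed no call of a member. Length-scaled levels moved by more than 1 SD in 15 of 18 cases with the principal transcript's length, chosen after the data were seen, and in 0 of 18 without TMM. With 2 *Tet2/3* DKO mice the intervals of the members reach 1.45-fold, and nothing shows how far the libraries' spread is technical.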
